A study of Homo sapiens with 8 samples.

Results

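The metallothionein genes MT1E, MT1F, MT1G, MT1M, MT1X and MT2A were followed through a cell line model of breast cancer progression. These 6 genes were taken by name from the 56632 genes in the table of counts, and each was found there by its Ensembl identifier. Poly A+ RNA was sequenced from 4 human mammary epithelial lines with 2 biological replicates each, which gives 8 libraries. M1 is MCF10A, an immortalized line that does not form tumors. M2 is MCF10AT1k.cl2, made by transfecting MCF10A with activated T24-HRAS and selected by xenografting. M3 is MCF10Ca1h, and M4 is the clone MCF10CA1a.cl1, and both came out of carcinomas that grew from M2 xenografts. Each line stands for 1 derivation. All 4 lines were grown for 8 days as acini on Matrigel in medium with 2% horse serum, hydrocortisone, cholera toxin and insulin. The medium of M1 and M2 held 10 ng/ml EGF and that of M3 and M4 held none, so EGF and line cannot be told apart in any comparison across that divide. For flat culture the paper lists EGF, hydrocortisone, cholera toxin and insulin for M1 and M2 and none of these for M3 and M4. Whether the acini were seeded from such cultures is not stated.

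Metallothioneins are small, cysteine-rich proteins that bind zinc and copper in the cell and can also take up cadmium. Their genes are induced by metals through MTF1, a zinc-sensing transcription factor that binds metal response elements in their promoters, and many are also induced by glucocorticoids and oxidative stress. MT2A is the form that most human tissues make in the largest amount, and the MT1 genes encode close relatives of it.

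The genes lie side by side on chromosome 16 (GRCh37). MT2A (ENSG00000125148) spans 56642496 to 56643409 and MT1E (ENSG00000169715) spans 56659387 to 56661024. MT1M (ENSG00000205364) spans 56666571 to 56667893 and MT1F (ENSG00000198417) spans 56691643 to 56694610. MT1G (ENSG00000125144) spans 56700642 to 56701977 and is the only member on the minus strand, while MT1X (ENSG00000187193) spans 56716382 to 56718108. From the first base of MT2A to the last of MT1X the members cover 75.6 kb, so genes with very different levels were close neighbours, as the plot of levels along the cluster shows.

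**Figure D1:**
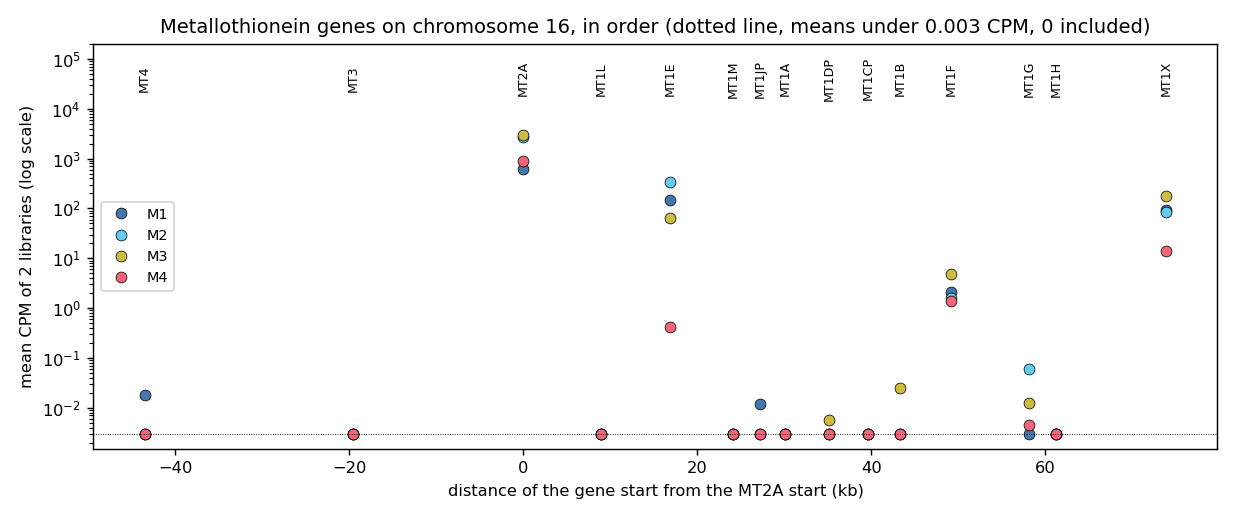
Mean CPM (the count scaled to the size of its library) of 2 libraries per line on a log axis, for each metallothionein gene of the chromosome 16 cluster, against the distance of its start from the MT2A start in kb. Each point is 1 line, and points on the dotted line are means under 0.003 CPM, 0 included; MT2A, MT1E and MT1X stand far above most of the genes between them, and the MT1E point of M4 lies well below those of the other lines.

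Promoter sequence was found for 2 of the 6 members, MT2A and MT1X, in the RefSeq promoter table (GRCh38.p14, 250 bases before to 50 after the start). The MT2A promoter is chr16:56608334-56608633 and the MT1X promoter is chr16:56682220-56682519, both on the plus strand. The metal response element core was searched on both strands as TGCACNC or TGCGCNC. MT2A held 8 matches and MT1X held 4. Of the 35116 promoters in the table, 29.6% held at least 1 match, 0.601% held at least 4 and 0.0199% held at least 8. The matches are shown because MTF1 acts through this element. Each is printed with its flanks, with the matching bases in capitals, on the strand of the gene, and the name gives the position of the first matching base counted from the start.
MT2A −246: ccgcTGCACCCagcccctt
MT2A −168 (match on the opposite strand): cgcggcccGTGTGCAgagccggg
MT2A −153: gagccgggTGCGCCCggcccagt
MT2A −139: cggcccagTGCGCGCggccgggt
MT2A −88 (match on the opposite strand): cgcggggcGTGTGCAggcagcgc
MT2A −54: ggggctttTGCACTCgtcccggc
MT2A −8: tgccgcgcTGCACTCcaccacgc
MT2A +31 (match on the opposite strand): gcgaacccGCGTGCAacctgtcc
MT1X −150: ccccgcggTGCGCCCggcgctgg
MT1X −122: cgggttgcTGCACCCggcccagg
MT1X −78 (match on the opposite strand): gcaggggcGGGTGCAaggacgag
MT1X −53: ggggcctcTGCGCCCggccctct
The antioxidant response element core, searched as TGACNNNGC on both strands, had 1 match in each of these promoters and at least 1 in 13.3% of all promoters. It is shown because oxidative stress is another well-known inducer of the family.
MT2A −104: gccgcaagTGACTCAGCgcggggcg
MT1X −243 (match on the opposite strand): gaggcagGCAATGTCAgggaaatt
None of the antioxidant matches overlapped a metal response element match. A match describes the letters only and does not show that a factor binds there.

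Library totals ran from 69669945 to 107350288 counts, and 18431 genes passed the filter on low counts. In every line the replicates differed by more than sampling noise, with a chi-square per degree of freedom of 6.65 in M2 and 111 to 293 in the other lines. All 8 epithelial markers listed were detected, and KRT5, a basal keratin, ran from 2837 to 9190 CPM. In M4 against M1, KRT18, KRT8 and EPCAM were called higher by edgeR and KRT5, KRT14 and TP63 lower. KRT17 and CDH1 were not called. That is 3 higher and 3 lower, where 9.48% and 11.2% of genes tested were called higher and lower. The part of these markers in the M4 results was not tested. Of 7 mesenchymal markers 6 had a count, with COL1A2 at 0. Their summed level was 99.2 and 420.5 CPM in M1 and 863 and 873 CPM in M2. It was 1119 and 1915 CPM in M3 and 462 and 588 CPM in M4. Nearly all of it was VIM except in M1 replicate 1, where VIM was at 55.5 CPM, COL1A1 at 25.5 CPM and ZEB2 at 15.2 CPM. Over all libraries COL1A1 ran from 6.07 to 25.5 CPM. The mesenchymal sum had the same order of lines as MT2A, and its part in the MT2A results was not tested. HBA1, a hemoglobin gene, was at 4.90 and 3.04 CPM in M3 and at most 0.500 CPM elsewhere (called 21.7-fold higher in M3 than in M1, edgeR adjusted p = 0.00266), while HBB was at 0, and the part of this in the M3 results was not tested. Of 4 immune markers, CD3E was at 0 in all libraries. CD68, which is best known from macrophages, ran from 4.03 to 25.1 CPM in M1, M2 and M3 and was 39.0 and 51.4 CPM in M4, while PTPRC, the general leukocyte marker, had at most 3 counts in a library. The part of CD68 in the M4 results was not tested. HRAS, the transfected gene, was at 139 to 160 CPM in M1 and M2, 269 and 327 CPM in M3, and 335 and 352 CPM in M4, and it was not called higher in M2 than in M1 (log2 fold change 0.10 ± 0.15 (SE), edgeR adjusted p = 0.736). A table of the study, compared over 268 genes, holds the library labelled M1 replicate 2 as M2 replicate 1, and the library labelled M2 replicate 1 as M1 replicate 2. The labels are used throughout, so every level, mean, sum or ratio of M1 or M2 rests on this assignment. Exchanging these 2 libraries moves the values printed for one line to the other. The effect of the exchange on the members' tests, and in part on the lists' calls below, is given beside them.

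MT2A, the major form, was the highest member in every library. It was at 691 and 571 CPM in M1, 2666 and 2693 CPM in M2, 3605 and 2378 CPM in M3, and 840.0 and 984 CPM in M4. The line means were 631 ± 85.1 CPM for M1, 2680 ± 19.2 CPM for M2, 2992 ± 868 CPM for M3 and 912 ± 102 CPM for M4 (SD, n = 2). The libraries of M2 and M3 were all above those of M1 and M4, and M2 and M3 overlapped. How many of all genes have no overlap between 2 lines was not counted. An absence of overlap, here and below, therefore describes the libraries only. Under the exchange of the 2 libraries, M1 would hold 691 and 2666 CPM and M2 571 and 2693 CPM, and these overlap. Among all genes ordered by CPM, MT2A stood at rank 174 and 207 in M1 and at rank 28 to 34 in M2 and M3, so in the middle lines it was among the most abundant mRNAs of the cell.

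MT1E, an MT1 form, took a different course. It was at 156 and 138 CPM in M1, 324 and 344 CPM in M2, 77.9 and 52.4 CPM in M3, and 0.0881 and 0.730 CPM in M4. The line means were 147 ± 12.6 CPM for M1, 334 ± 14.2 CPM for M2, 65.2 ± 18.0 CPM for M3 and 0.409 ± 0.454 CPM for M4 (SD, n = 2). By the labels no 2 lines overlapped, which again describes the libraries only. With the 2 libraries exchanged, M1 would hold 156 and 324 CPM and M2 138 and 344 CPM, which overlap, and M3 and M4 would still be below both. The M4 values rest on 10 and 57 counts, against 11304 and 12880 counts in M1, so MT1E went from rank 998 and 1151 among genes in M1 to rank 17488 and 13114 in M4. Within M4 the replicates differed 8.29-fold, and both were far below every other library.

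MT1X, a further MT1 form, was at 89.97 and 99.0 CPM in M1, 79.3 and 86.8 CPM in M2, 286 and 64.6 CPM in M3, and 16.9 and 11.1 CPM in M4. The libraries of M4 were the lowest, and those of M3 included both the highest value and one below M1 and M2. The M3 replicates differed 4.43-fold, and this wide spread limits every comparison of MT1X with M3. The line means of MT1X were 94.5 ± 6.37 CPM for M1, 83.1 ± 5.34 CPM for M2, 175 ± 157 CPM for M3 and 14.0 ± 4.12 CPM for M4 (SD, n = 2).

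MT1F was a minor member, at 1.499 and 2.64 CPM in M1, 1.64 and 1.61 CPM in M2, 7.47 and 2.00 CPM in M3, and 1.37 and 1.44 CPM in M4. Its 1 high value came from the same M3 library, replicate 1, that was highest for MT1X and MT2A. MT1G had 0 to 7 counts in a library, with the 7 in M2 replicate 2, and did not pass the filter. MT1M was at 0 in all 8 libraries, and a count of 0 allows up to 3 counts, or 0.0279 to 0.0431 CPM, by counting error alone. In all, 4 of the 6 members passed the filter and were tested. The plot of member levels by library shows these patterns.

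**Figure D2:**
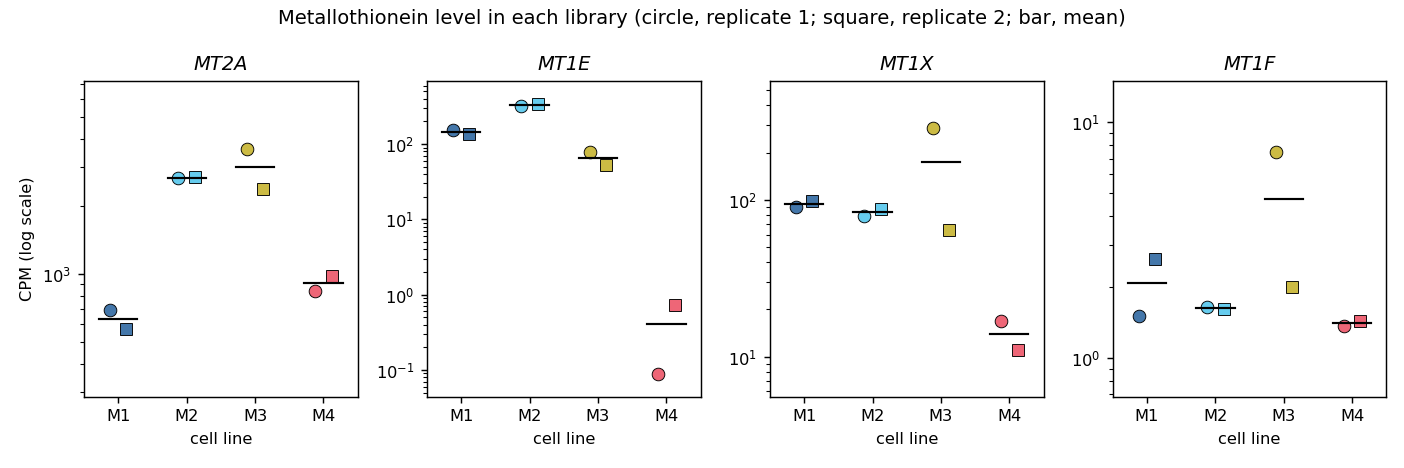
CPM of MT2A, MT1E, MT1X and MT1F in each of the 8 libraries, on log axes, grouped by line; each point is 1 library and each bar is the mean of 2. MT1E lies between 52.4 and 344 CPM in M1, M2 and M3 and under 1 CPM in M4, while MT2A in M4 (840.0 and 984 CPM) is above M1 and below M2 and M3.

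Levels of different genes were compared per kb of merged exon. On this scale the level of MT2A was 690.1, 2932, 3273 and 998 CPM per kb in M1, M2, M3 and M4. MT1E followed it in M1 (139.5 CPM per kb) and M2 (317.5 CPM per kb). In M3, MT1X came next after MT2A with 101.5 CPM per kb, and MT1E followed with 61.9 CPM per kb. In M4 MT1E, at 0.389 CPM per kb, was below MT1F at 0.756 CPM per kb. The order of the members was the same with the longest transcript in place of merged exons.

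M2 and M1 were both grown with EGF, and this comparison asks what differs between the line with activated HRAS and its parent. MT2A was 4.25-fold higher in M2 (log2 fold change 2.09 ± 0.24 (SE), edgeR quasi-likelihood adjusted p = 0.00643). It was the 1 member called, of 4 tested, where 3.37% of all genes tested were called, 2.26% higher and 1.11% lower. Calls needed both an adjusted p below 0.05 and a log2 fold change beyond 1 in either direction. MT1E had a log2 fold change of 1.19 ± 0.54 (adjusted p = 0.241), MT1X of −0.19 (adjusted p = 0.882) and MT1F of −0.35 (adjusted p = 0.765), and none of these passed the test. MT1E did not overlap between M2 and M1, but its difference did not hold against the spread shared by the lines. That spread takes in M4, where the MT1E replicates differed 8.29-fold, against 1.13-fold in M1, 1.06-fold in M2 and 1.49-fold in M3. In the edgeR fit of only M1 and M2, MT1E was called higher in M2 (1.19 ± 0.10 (SE), adjusted p = 0.022). If the 2 libraries were exchanged the MT2A difference was −0.041, that of MT1E was 0.007, and no gene in the whole table was called. Without M2 replicate 1 or M2 replicate 2 MT2A was no longer called, while its log2 fold change was 2.10 and 2.08. With 1 library of M2 left, a call is harder to reach for any gene. Over its 11 alternatives the adjusted p of MT2A ran from 1.38e-18 to 1.0.

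MT2A was also higher in M3 than in M1, 4.74-fold (log2 fold change 2.25 ± 0.24 (SE), adjusted p = 0.00139). It was again the 1 member called, where 8.02% of genes tested were called higher and 5.51% lower, 13.5% in all. MT1E had a log2 fold change of −1.17 ± 0.54 (adjusted p = 0.164), MT1X of 0.89 (adjusted p = 0.308) and MT1F of 1.19 (adjusted p = 0.182). MT1X and MT1F overlapped between M3 and M1. In the edgeR fit of only M1 and M3, MT1E was called lower in M3 (−1.175, adjusted p = 0.037). Under the exchange of the 2 libraries the MT2A difference was 0.83 (adjusted p = 0.620) and no member was called (MT2A range over its 11 alternatives 6.05e-22 to 0.620). Without M3 replicate 2 the members called were 3, and without M3 replicate 1 MT1X and MT1F changed sign.

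In M4 against M1, MT1E and MT1X fell. The fall of MT1E was 385-fold (log2 fold change −8.59 ± 0.78 (SE), adjusted p = 0.000515) and that of MT1X was 6.74-fold (−2.75 ± 0.62, adjusted p = 0.0149). These 2 members were called lower, where 20.7% of genes tested were called, 9.48% higher and 11.2% lower. MT2A had a log2 fold change of 0.53 ± 0.23 (adjusted p = 0.119), which with the 2 libraries exchanged became −0.88 (adjusted p = 0.516; range over its 11 alternatives 0.05001 to 0.516), and MT1F one of −0.56 (adjusted p = 0.503). As these are bulk samples, fewer cells that express a gene and less RNA per cell cannot be told apart. MT1E was called under all 11 alternatives run, with adjusted p of at most 0.00960, and the fall was 200-fold if M4 replicate 1 was left out and 1620-fold if M4 replicate 2 was. MT1X was no longer called without M4 replicate 1 (adjusted p = 0.0573) or M4 replicate 2 (adjusted p = 0.100; range over its 11 alternatives 1.76e-37 to 0.100).

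M3 and M2 differ in the tumor passage and in EGF. None of the 4 tested members was called by edgeR, where 4.15% of genes tested were called, 2.95% higher and 1.2% lower. At an unadjusted p under 0.05, 2 of the 4 passed. At an adjusted p of 0.0584, MT1E was nearest to a call, with a log2 fold change of −2.36 ± 0.56 (SE). In the edgeR fit of only M2 and M3, MT1E was called lower in M3 (−2.36, adjusted p = 0.0136). In the fit of all lines, MT2A had a log2 fold change of 0.16 ± 0.23 (adjusted p = 0.741), MT1X of 1.08 (adjusted p = 0.329) and MT1F of 1.54 (adjusted p = 0.176). By DESeq2 1 member was called, MT1E (adjusted p = 0.0312; range over its 11 alternatives 7.08e-28 to 0.339). No member was called with the 2 libraries exchanged. MT1E then had a log2 fold change of −1.89 (edgeR adjusted p = 0.26) and MT2A one of 0.87 (adjusted p = 0.61).

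In M4 against M2, MT1E, MT1X and MT2A were all lower. MT1E was 876-fold lower (log2 fold change −9.78 ± 0.81 (SE), adjusted p = 0.00068), MT1X 5.93-fold lower (−2.57 ± 0.61, adjusted p = 0.0250) and MT2A 2.94-fold lower (−1.56 ± 0.24, adjusted p = 0.00434). These 3 members were called lower, where 13.9% of genes tested were called, 6.98% higher and 6.94% lower. MT1F had a log2 fold change of −0.21 (adjusted p = 0.821). Without any 1 of the 4 libraries of M2 and M4, MT1X was not called and MT1E and MT2A were. The MT1E fall was 455-fold if M4 replicate 1 was left out and 3670-fold if M4 replicate 2 was. With the 2 libraries exchanged the MT2A difference was −0.84 (adjusted p = 0.516; range over its 11 alternatives 3.42e-11 to 0.516).

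M4 and M3 were both grown without EGF, and the same members were called lower in M4. MT1E was 171-fold lower (log2 fold change −7.42 ± 0.75 (SE), adjusted p = 0.00256), MT1X 12.5-fold lower (−3.65 ± 0.64, adjusted p = 0.0125) and MT2A 3.28-fold lower (−1.71 ± 0.24, adjusted p = 0.00569). These 3 members were called lower, where 10.3% of genes tested were called, 3.99% higher and 6.3% lower. MT1F had a log2 fold change of −1.76 (adjusted p = 0.0811), and DESeq2 called it lower (adjusted p = 0.0196; range over its 11 alternatives 0.000925 to 0.494). The MT1E fall was 88.9-fold if M4 replicate 1 was left out and 717-fold if M4 replicate 2 was. MT1X was not called without M4 replicate 1 or M4 replicate 2 (adjusted p = 0.0709 and 0.0791; range over its 11 alternatives 1.40e-60 to 0.0791), and MT2A was not called without M4 replicate 1 (adjusted p = 0.0551) or with the 2 libraries exchanged (adjusted p = 0.241; range over its 11 alternatives 2.98e-13 to 0.241). Without M3 replicate 1 the MT1X difference was −2.21.

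**Figure D3:**
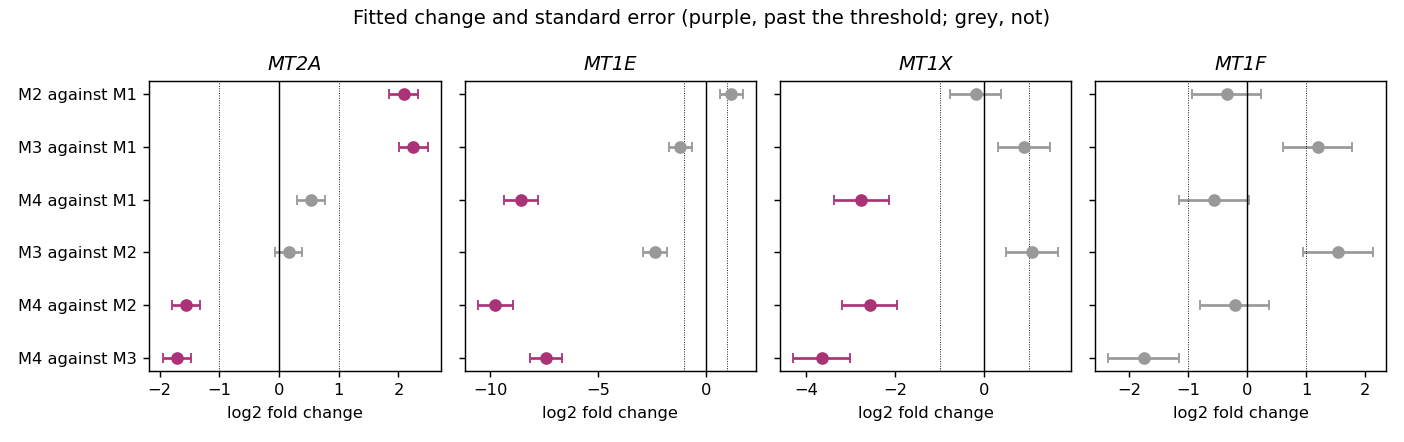
Log2 fold changes of the 4 tested members in each of the 6 comparisons, with bars of 1 standard error; purple points passed the threshold, grey points did not, and dotted lines mark a log2 fold change of 1 in each direction. The MT1E values against M4 lie between −9.78 and −7.42, far from the other members, and MT2A is above 2 in M2 and M3 against M1.

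Over the 4 tested members the median log2 fold change was 0.50 in M2 against M1, 1.04 in M3 against M1, −1.66 in M4 against M1, 0.62 in M3 against M2, −2.06 in M4 against M2 and −2.70 in M4 against M3. Over all genes tested the median was between −0.035 and −0.004 in each comparison. The comparisons share libraries, so these medians are not separate pieces of evidence. MT1E and MT1X were called lower in M4 against M1 and MT2A was not called.

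Summed over the 6 members, the family reached 938 and 810.1 CPM in M1, 3071 and 3126 CPM in M2, 3977 and 2497 CPM in M3, and 858 and 998 CPM in M4. As a share of all counts it made up 0.0961% and 0.0795% for M1, 0.306% and 0.316% for M2, 0.359% and 0.252% for M3, and 0.0907% and 0.102% for M4. By the labels the sum in M4 overlapped that in M1, although its make-up did not. If the 2 libraries were exchanged M1 would hold 938 and 3071 CPM, and M4 would overlap it still. MT2A supplied 73.7% and 70.4% of the members' counts for M1, 86.8% and 86.2% for M2, 90.7% and 95.2% for M3, and 97.9% and 98.7% for M4. MT1E supplied 16.6% and 17.0% for M1, 10.6% and 11.0% for M2, 1.96% and 2.10% for M3, and 0.0103% and 0.0732% for M4.

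The ratio of 2 members within a library does not depend on how libraries are scaled. Per 1000 MT2A counts there were 225 and 242 MT1E counts for M1, 122 and 128 for M2, 21.6 and 22.0 for M3, and 0.105 and 0.742 for M4. By the labels the ratio was lower in each line than in the one before, with no overlap. Under the exchange of the 2 libraries M1 would hold 225 and 122 and M2 242 and 128, which overlap, and M3 and M4 would stay below both. In M3 the replicates gave nearly the same ratio although their MT2A levels differed 1.52-fold. Per 1000 MT2A counts there were 130 and 173 MT1X counts for M1, 29.7 and 32.2 for M2, 79.4 and 27.2 for M3, and 20.1 and 11.3 for M4, so the M3 replicates did not share a ratio for MT1X. The ratio of MT1E to MT1X was 1.73 and 1.39 for M1, 4.09 and 3.96 for M2, 0.272 and 0.811 for M3, and 0.00521 and 0.0659 for M4. A ratio shows unequal change of 2 genes and does not say which of them changed.

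**Figure D4:**
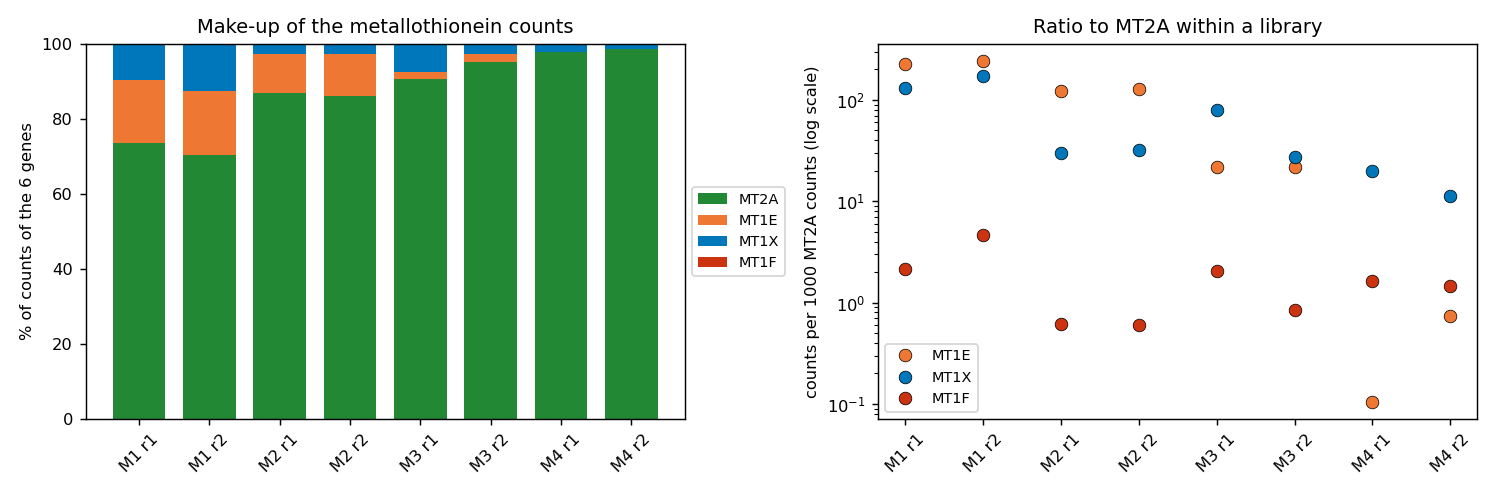
Left, share of the counts of the 6 members taken by each of 4 members, in % for each library. Right, counts per 1000 MT2A counts on a log axis for MT1E, MT1X and MT1F; the MT1E ratio goes from 225 and 242 in M1 to 0.105 and 0.742 in M4.

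The members held 99.96% to 99.97% of the counts of the whole metallothionein family in every library. Of 13 other metallothionein genes and pseudogenes listed, 12 were matched in the table, 6 had a count and 1, MT2P1, was tested. MT1A, MT1H and MT3, a form known from brain, were at 0 in all 8 libraries. MT2P1 is a processed pseudogene with sequence like MT2A, and it had 17 to 102 counts, or 28.4 to 52.5 per 100000 MT2A counts. It was called higher in M3 than in M1 (log2 fold change 1.89 ± 0.49 (SE), edgeR adjusted p = 0.0315), but not with the 2 libraries exchanged (0.91, adjusted p = 0.562). Its counts and those of MT2A were not whole numbers in any of the 8 libraries (tolerance 0.005), which shows that reads were shared out by the estimate. MT1X had such counts in 6 libraries and MT1E, MT1F and MT1G in 2 each. The split between near-identical members is therefore uncertain, and how many reads were shared out was not measured.

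None of 7 listed regulators of metallothionein genes was called in any of the 6 comparisons by edgeR or by DESeq2. At an unadjusted p under 0.05 in edgeR, 11 of the values passed, and 3 of these were in M4 against M1. USF1 and USF2, which bind E-box motifs, had log2 fold changes of −0.67 (edgeR adjusted p = 0.00863) and −0.77 (adjusted p = 0.00728) in M4 against M1. They passed the threshold on p but not that on fold. The same held for both in M4 against M3 (adjusted p = 0.0357 and 0.0161) and for USF2 in M4 against M2 (adjusted p = 0.0387). It also held for NFE2L2 in M3 against M1 (−0.59, adjusted p = 0.0245) and M3 against M2 (−0.63, adjusted p = 0.0449). These genes were named after their values were seen. By edgeR's test against M1, the M4 value of MTF1, the metal-responsive factor, was a log2 fold change of 0.36 (adjusted p = 0.359), with levels of 10.2 to 19.9 CPM over all libraries. NR3C1, the glucocorticoid receptor, was at 51.4 to 103 CPM, and its M4 value against M1 was 0.34 (adjusted p = 0.367). SLC30A1, a zinc exporter that is itself a target of MTF1, was at 30.8 to 57.5 CPM, and its M4 value against M1 was 0.18 (adjusted p = 0.649).

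Zinc transporters were counted because metallothioneins bind zinc. Of 14 listed SLC39 importers, which move zinc into the cytosol, 12 were tested. In M4 against M1, 3 were called higher and none lower, where 9.48% of genes tested were called higher. SLC39A14 rose most (log2 fold change 1.501, edgeR adjusted p = 0.000335), from 44.5 and 49.5 CPM in M1 to 131 and 135 CPM in M4. SLC39A8 rose by 1.10 (adjusted p = 0.0039) and SLC39A10 by 1.01 (adjusted p = 0.0195). In M3 against M1, SLC39A8 and SLC39A10 were the 2 called, both higher, where 8.02% of genes tested were called higher. There were 2 called higher in M4 against M2 and 1 in M3 against M2, where 6.98% and 2.95% of genes tested were. In M4 against M3, 0 were called by edgeR or DESeq2, and 6 had an unadjusted p under 0.05 in edgeR. With the 2 libraries exchanged only SLC39A14 was called, in M4 against M1 and in M4 against M2. In M2 against M1, 0 were called by edgeR or DESeq2, and 3 had an unadjusted p under 0.05 in edgeR. Of 10 SLC30 exporters, 7 were tested, and in M4 against M1 1 was called, SLC30A3, which had 4 and 5 counts in M1 and 0 in both M4 libraries. SLC30A3 was also called lower in M4 against M2 and M3, and SLC30A4 was called higher in M4 against M2. Of genes tested, 11.2%, 6.94% and 6.3% were called lower in M4 against M1, M2 and M3. In M4 against M2, 6.98% were called higher. With the exchange SLC30A3 was not called in M4 against M1 (adjusted p = 0.0644).

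Copper handling genes were counted because metallothioneins also bind copper. Of 14 listed, 13 were tested, and in M3 against M1 2 were called higher and 2 lower, where 8.02% of genes tested were called higher and 5.51% lower. COX17, which carries copper to cytochrome oxidase, had a log2 fold change of 1.66 (edgeR adjusted p = 0.000819), and STEAP2, a metalloreductase, one of 2.09. ATP7A, a copper exporter, was called lower (−1.12). STEAP4, the other gene called lower, had 4.70 and 0.171 CPM in M1 and at most 0.0253 CPM in M3, and its M1 level rested on replicate 1. COX17 was the 1 gene called in M4 against M1 (1.30, adjusted p = 0.00105), where 9.48% of genes tested were called higher. In M4 against M2 1 was called, SOD1, the cytosolic superoxide dismutase, which was lower and is named after its value was seen. Of genes tested, 6.94% were called lower in that comparison. If the 2 libraries were exchanged no copper gene was called in any comparison.

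Glucocorticoid-induced genes were counted because hydrocortisone was in the medium of the acini of all lines. For flat culture the paper lists it for M1 and M2 only. All 10 listed were tested. In M4 against M1, 5 were called lower and none higher, where 11.2% of genes tested were called lower, and their median log2 fold change was −1.94 against −0.02 over all genes tested. ZBTB16, a zinc finger repressor, had 34.8 and 15.9 CPM in M1 but 0.0617 and 0.0128 CPM in M4 (7 counts and 1 count; edgeR adjusted p = 0.00235). TSC22D3, which encodes the GILZ protein, fell by 3.77 on the log2 scale (adjusted p = 0.0155), KLF9, a transcription factor, fell by 2.34 (adjusted p = 0.00237), and FKBP5, a co-chaperone of the receptor, fell by 2.12 (adjusted p = 0.00381). In M2 against M1, 0 were called by edgeR or DESeq2, and 1 had an unadjusted p under 0.05 in edgeR. In M3 against M1, 2 were called lower and 1 higher, ANGPTL4 (4.73, adjusted p = 0.0202). Of genes tested, 5.51% were called lower in that comparison and 8.02% higher. In M4 against M2, 6 listed genes were called lower and in M4 against M3 2 were, against 6.94% and 6.3% of genes tested. TSC22D3 was 4.59-fold higher in M3 replicate 1, where MT1X was also higher, and 3.78-fold higher in M1 replicate 1, where MT1X was lower than in M1 replicate 2. Under the alternatives, the count called lower ran from 4 to 6 in M4 against M1 and from 2 to 6 in M4 against M2, and it was 3 without M2 replicate 1, M2 replicate 2 or M4 replicate 2 and 2 without M4 replicate 1. DESeq2 also called ANGPTL4 in M4 against M1, where its change was upward. Under the exchange of the 2 libraries the M4 against M1 count was 5, with the same genes, and in M3 against M1 none was called. Whether this list bears on the metallothionein genes was not tested.

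**Figure D5:**
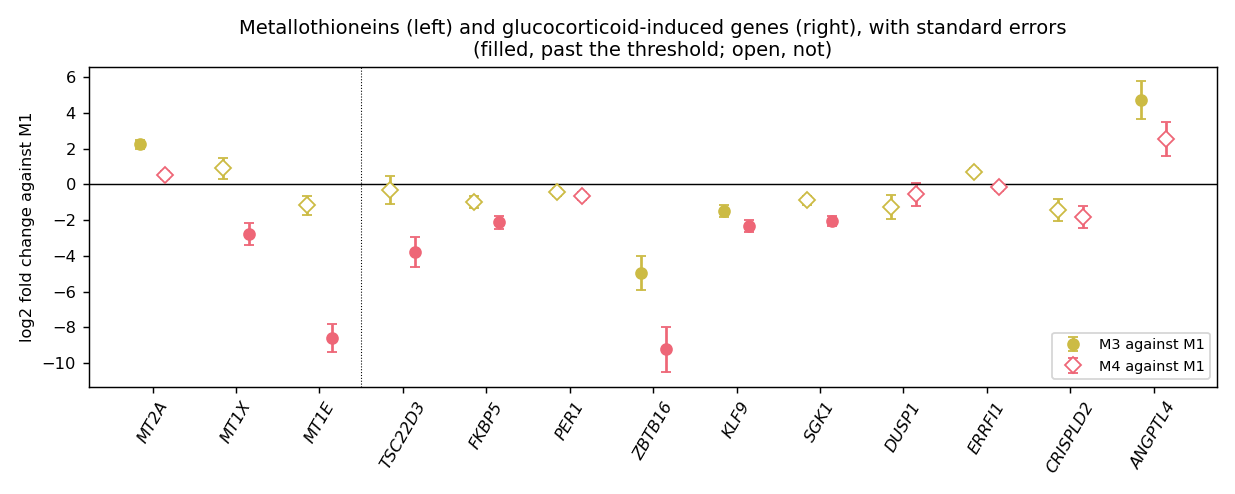
Log2 fold changes in M3 against M1 and M4 against M1 for MT2A, MT1X and MT1E, left of the dotted line, and for the 10 listed glucocorticoid-induced genes, right of it, with bars of 1 standard error; filled points passed the threshold and open points did not. In M4 against M1, 5 of the 10 listed genes are called lower. In M3 against M1, ANGPTL4 is the only one of the 10 listed genes called above 0, and MT2A is also called above 0.

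Genes around the cluster were compared with it. Within 500 kb of the members the annotation holds 29 other genes, of which 11 were tested. In M4 against M1, 1 was called higher and 1 lower, where 9.48% of genes tested were called higher and 11.2% lower. NLRC5, a regulator of MHC class I genes, had a log2 fold change of 1.83 (edgeR adjusted p = 0.0161). GNAO1, a G protein subunit, had one of −4.30 (adjusted p = 0.0408), and its M1 values were 32.2 and 1.04 CPM, so the fall rested on M1 replicate 1. HERPUD1, an endoplasmic reticulum stress gene named after its values were seen, was called lower in M2 than in M1 (−1.31) and higher in M4 than in M2 (2.30) and M3 (1.95). With the 2 libraries exchanged no neighbour was called in any comparison. The neighbours had no shared direction, with a median log2 fold change of 0.44 in M4 against M1, 0.11 in M4 against M2 and 0.09 in M4 against M3.

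Among 9369 genes with a mean of at least 10 CPM, those most like the summed level of the members over the 8 libraries, by Pearson's r of log2(CPM + 1), were LSM5 (0.995), HMGB2 (0.99), POLR2K (0.989), SEPTIN7 (0.989) and PKM (0.988). These points are libraries of only 4 lines, so the values describe likeness across lines and carry no test.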

How the data were processed

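The deposited table holds expected counts for each gene, not normalized. To obtain them, the authors trimmed paired-end, poly A+ reads (Trimmomatic), aligned them to hg19 (STAR) and estimated counts for GENCODE v19 genes (RSEM). Tool versions, and whether counting used strand, are not given in the sources used here. Counts were rounded. Names and positions came from GENCODE release 44 on GRCh37. Groups came from the sample labels. edgeR 4.0.16 in R 4.3.3 was fitted to all 8 libraries (TMM, filterByExpr, robust quasi-likelihood F test, 1 coefficient per line, 4 residual degrees of freedom), with Benjamini-Hochberg adjustment over 18431 genes. Standard errors are those implied by F. CPM used TMM-scaled totals. With 2 replicates a line, precision is limited by replicate spread more than by depth, and the floor of 3 counts covers counting error only. On simulated data for M4 against M1 (17851 genes, with means pooled over all lines), 200 genes were set 4-fold higher or lower in M4. Of these 111 were recovered, with 5 false calls, so many changes of that size were missed. DESeq2 1.42.0, other scalings and filters, a replicate block, fits of only the 2 lines compared, exchanged libraries and each library left out were alternatives. Members are named in full. Up to 4 genes per list were named, those with the largest change among the called ones in M3 or M4 against M1, with MTF1, SLC30A1 and NR3C1 always and the 5 genes most like the family. FKBP5, SLC30A4, the cell type markers and the genes marked as named after their values were seen were named beyond this rule. The members and lists were chosen with earlier results of these data known.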

Additional observations from a re-analysis of the deposited data

How the results depend on the processing

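The fall of MT1E in M4 was called under all 11 alternatives in each of its 3 comparisons. RLE scaling and a stricter filter left the direction and call of all 24 member differences as they were. Members called changed as follows. In M4 against M2 they were 2 with the 2 libraries exchanged, against 3 by the labels. In M2 against M1 they were 2 without the filter on low counts, 2 with only the 2 lines compared, 0 with 2 libraries exchanged and 0 to 1 with 1 library left out. In M3 against M1 they were 3 without the filter, 2 with only the 2 lines, 0 with the exchange and 1 to 3 with 1 library left out. In M3 against M2 they were 1 by DESeq2, 3 without the filter, 1 with only the 2 lines and 0 to 2 with 1 library left out. Leaving out 1 library gave 1 to 2 in M4 against M1 and 1 to 4 in M4 against M3, where DESeq2 and the fit without the filter each called 4 members against 3. With the exchange, 4 differences changed sign, to 0.43 for MT1F, 0.14 for MT1X and −0.041 for MT2A in M2 against M1, and to −0.88 for MT2A in M4 against M1. With 1 library left out, MT1F ran from −0.70 to 0.12 in M2 against M1 and from −0.041 to 1.86 in M3 against M1. MT1X ran from −0.54 to 1.61 in M3 against M1 and from −0.36 to 1.79 in M3 against M2, where MT2A ran from −0.17 to 0.43. The cause was not tested.

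The count of all genes called in M2 against M1 was 622, against 1273 by DESeq2, 1788 without the filter and 0 with the exchange. The deviations between replicates 1 and 2 had correlations of −0.0605 to 0.0114 between lines, and of 0.23 for M3 with M4. These values use the labels, and the deviations were not compared with the 2 libraries of M1 and M2 exchanged. They therefore do not settle whether replicate numbers pair the samples. In the fit with a replicate block the members called were 1, 1, 2, 0, 3 and 3 in M2, M3 and M4 against M1, M3 and M4 against M2, and M4 against M3, and no member's call or direction changed. The glucocorticoid counts under alternatives and the list counts with the 2 libraries exchanged were chosen after seeing the data.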
